A study of Mus musculus with 24 samples.

Results

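CD4+ T cells activated in Th1 skewing conditions were compared with cells activated without skewing (Th0) at 6 time points, 4, 8, 12, 16, 20 and 24 h. The comparison uses 12 of the 24 libraries of the series, 6 Th1 and 6 Th0, chosen by their labels and paired by hour, and all genes of the expression table. The cells were CD4+ cells of wild-type (WT) C57BL/6 adult spleen, isolated by negative selection and pooled from 6 mice; the labels call them purified and the study's methods name naive cells. Th0 cultures received plate-bound anti-CD3 and soluble anti-CD28, and Th1 cultures received the same with anti-IL-4 and recombinant IL-12. Th2 cultures received anti-IL-12, anti-IFN-γ and recombinant IL-4. Values of the Th2 cultures and of the resting cells are given only beside a result. The 6 Th2 libraries were also part of the filter on low genes and of the main fit, and so entered the error behind its p-values. Each hour and condition was sequenced once, from cells taken out of the running cultures. The 6 hours of a series therefore stand in for replicates. P-values of the main fit set a Th1 minus Th0 difference against the scatter of the Th0, Th1 and Th2 series over the hours, with 1 culture series per condition. They do not measure the spread between animals or cultures. Anti-IL-4 and IL-12 were always added together, so their effects cannot be told apart. RNA was measured in bulk, in which fewer cells of a type and less RNA per cell cannot be told apart.

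IL-12 is a cytokine of myeloid cells that acts on activated T cells through a receptor of the chains IL-12Rβ1 and IL-12Rβ2 and the transcription factor STAT4, which induces Ifng. IFN-γ raises T-bet, encoded by Tbx21, the lineage factor of Th1 cells. IL-4, which anti-IL-4 withholds, acts through the IL-4 receptor α chain and STAT6 and raises GATA-3, the lineage factor of Th2 cells, and the IL-4 receptor chain itself.

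Of the 22009 named genes of the table, 10737 had a mean of at least 1 RPKM (reads scaled by transcript length and by the mapped reads of the library) over the 18 Th0, Th1 and Th2 cultures and were tested. The mapped reads, recovered from the values, were between 21461181 and 29686702 in Th0 and between 22320770 and 33017133 in Th1. Markers of T cells were high in every library: the summed level of 13 measured genes of T cell identity was between 2195 and 2518 RPKM in Th0 and between 2274 and 2560.4 RPKM in Th1. The summed level of 14 B cell markers was at most 62.2 RPKM in Th0 and 49.6 RPKM in Th1. The 8 h pair stood apart. Over the genes tested, the SD of the log2 difference was 0.46 between Th1 and Th0 at 8 h but 0.32 between Th1 at 8 h and Th0 at 12 h, whereas Th1 at each other hour lay nearest to Th0 at its own hour, with an SD between 0.24 and 0.33. Counts are therefore also given without 8 h.

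**Figure D1:**
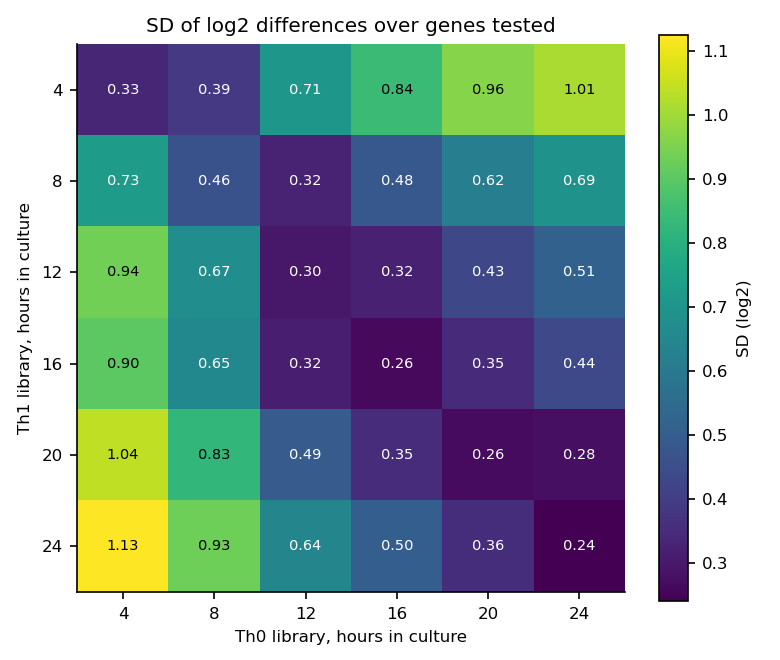
SD of the log2 differences over 10737 genes between each Th1 library (rows, hours in culture) and each Th0 library (columns), with log2(RPKM + 0.5) as the scale. Th1 at 8 h is nearest to Th0 at 12 h, at 0.32, and the other 5 Th1 libraries are nearest to Th0 at the same hour.

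Skewing to Th1 for up to a day changed few genes, and Ifng the most, ahead of Pros1, which was lower in Th1. With limma, which tests the mean Th1 minus Th0 log2 difference over the 6 hours, 53 of 10737 genes (0.494%) differed at least 2-fold at a Benjamini-Hochberg adjusted p under 0.05. Of these, 19 (0.177%) were higher in Th1 and 34 (0.317%) were lower. With the hour left out of the fit, so that the libraries were not paired, 19 of the 53 passed, 8 higher and 11 lower, and no others. Without the 8 h pair, 40 genes passed, of which 38 were among the 53. Of the 19 higher genes 17 still passed, and 21 of the 34 lower genes did. Over 12 to 24 h alone, 14 of the 19 and 24 of the 34 passed. At any size of difference, 56 genes were higher (0.522%) and 188 lower (1.75%) at that adjusted p. This total of 244 was 78 without 12 h and 145 without 8 h. In a fit of the Th0 and Th1 libraries alone it was 349, and 51 genes passed with the 2-fold limit. The median difference of all genes tested was -0.01 (log2).

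The same-hour pairing was set against another after seeing the distances between libraries. With Th1 at each hour paired with Th0 one time point later, in 5 pairs, all 19 higher genes and all 34 lower genes kept their direction, as did 60.7% of all genes tested, from the same libraries. Of them 17 and 23 passed the threshold; the higher genes that did not were Gzmb and Ccl3. In that pairing 61 genes passed in all, 33 higher and 28 lower, so that lower genes were no longer the more numerous.

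**Figure D2:**
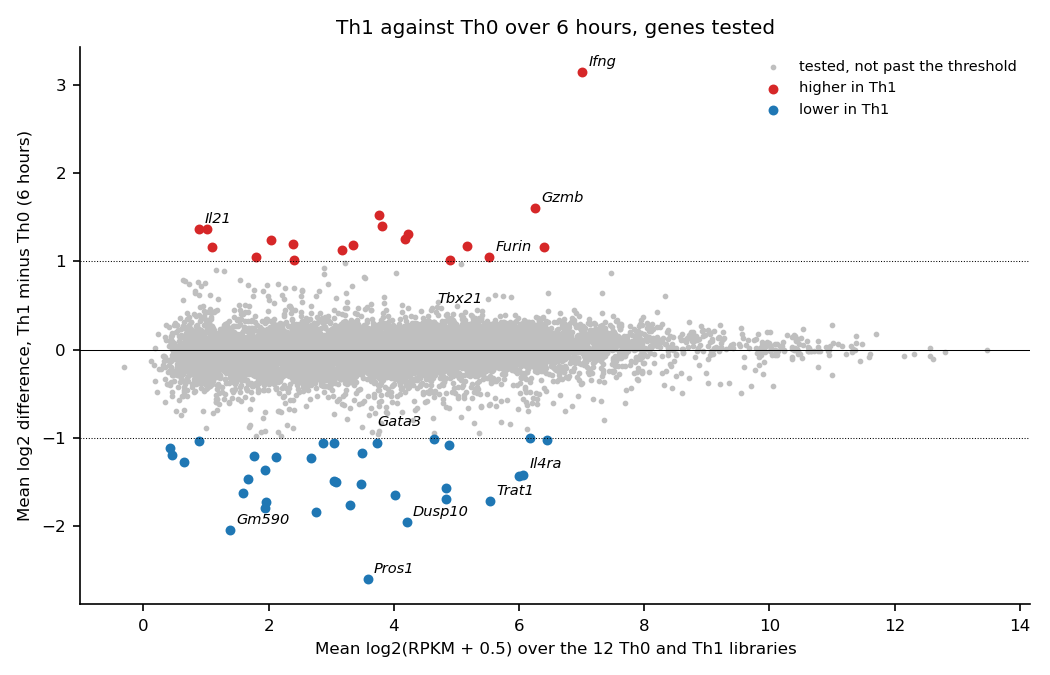
Mean log2 difference between Th1 and Th0 over 6 hours (y axis, dotted lines at 2-fold) against mean log2(RPKM + 0.5) over the 12 libraries (x axis), 1 point per gene. The 19 genes past the threshold and higher in Th1 are red, the 34 lower genes are blue, and Ifng stands alone at 3.15.

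Ifng, the cytokine that defines Th1 cells, had the largest difference of all genes tested. In Th0 it had 14.9 RPKM at 4 h and rose to 94.5 RPKM at 24 h, with a median of 55.6 RPKM, and resting cells had 29.7 and 28.5 RPKM. In Th1 it was at 206 RPKM at 4 h, had a median of 421 RPKM and reached its highest value of 499.9 RPKM at 16 h. All Th1 values lay above all Th0 values. The log2 difference was 3.15 (standard error (SE) 0.26), an 8.87-fold change (limma, adjusted p = 8.68e-06). The ratio of Th1 to Th0 was largest at 8 h, at 21.7 (95% conditional binomial interval 20.0 to 23.6, counting error only, as for every interval here), and smallest at 24 h, at 4.11 (3.95 to 4.28). Th0 rose at every step while Th1 fell after 16 h. The slope of the difference over 20 h was -2.08 (log2, limma, adjusted p = 0.0548), just outside the threshold. In Th2, Ifng was between 60.5 and 75.0 RPKM. Ifng lies on chromosome 10 of GRCm38 from 118441046 to 118445892, plus strand, and other genes, mostly Gm49751, share 19.9% of its transcripts' 50-base windows.

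The 250 bases before the start of Ifng and of Pros1, the genes with the largest difference in each direction, are given from the RefSeq promoters of GRCm38.p6, at chr10:118440796-118441045 and chr16:62854057-62854306, both on the plus strand. Capitals mark matches of the motifs searched: the GAS element bound by STAT factors, TTCNNNGAA, in both, and the STAT6 site, in which 4 bases of any kind part TTC from GAA, as the first match in Pros1.
Ifng: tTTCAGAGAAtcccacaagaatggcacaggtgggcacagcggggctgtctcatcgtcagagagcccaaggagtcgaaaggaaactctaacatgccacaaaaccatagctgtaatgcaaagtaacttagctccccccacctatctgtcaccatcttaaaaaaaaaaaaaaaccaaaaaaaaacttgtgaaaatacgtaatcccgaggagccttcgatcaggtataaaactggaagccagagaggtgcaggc
Pros1: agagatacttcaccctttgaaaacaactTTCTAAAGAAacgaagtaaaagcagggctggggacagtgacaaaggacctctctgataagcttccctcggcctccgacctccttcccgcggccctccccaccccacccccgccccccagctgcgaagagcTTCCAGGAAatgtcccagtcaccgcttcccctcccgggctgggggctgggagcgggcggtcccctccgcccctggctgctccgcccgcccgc
The match in Ifng begins 249 bases before the start, at the edge of the window, and those in Pros1 begin 222 and 92 bases before it.

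Genes of cytotoxic granules and cytokine genes were among those higher in Th1. Of 23 genes on the list of Th1 cytokines and effector molecules, 7 passed the threshold (30.4%), all higher, against 0.177% of all genes tested. The 7 were Ifng, Gzmb, Il21, Prf1, Gzma, Ccl3 and Furin. The median of the list was 0.61 (log2), against -0.01 for all genes tested. Of its 23 genes 20 were higher in Th1, against 48.3% of all genes tested. Gzmb, the protease granzyme B of cytotoxic granules, rose with time in both conditions. It had 9.90, 59.1 and 145 RPKM in Th0 and 23.8, 195 and 301 RPKM in Th1 (lowest, median, highest), and its log2 difference was 1.61 (SE 0.22, limma, adjusted p = 6.04e-04). Its ranges overlapped, but Th1 was higher at 6 of 6 hours; against Th0 one time point later it came under 2-fold, at 0.96. Prf1, the pore-forming perforin, changed little with time. It was between 4.42 and 7.87 RPKM in Th0 (median 6.56) and between 11.3 and 18.9 RPKM in Th1 (median 14.8), without overlap (log2 difference 1.19, SE 0.13, limma, adjusted p = 7.71e-05). Gzma, granzyme A, had 49.9 RPKM at 4 h, 60.9 RPKM at 8 h and 11.7 RPKM at 24 h in Th0 and fell from 147 to 22.6 RPKM in Th1, and resting cells had 68.0 and 66.8 RPKM. It was higher in Th1 at 6 of 6 hours (log2 difference 1.17, SE 0.20, limma, adjusted p = 0.00333), and Th2 was also higher than Th0 (log2 difference 1.05, limma, adjusted p = 0.00123).

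Il21, a cytokine of follicular helper T cells that also responds to IL-12, was low in every library. It had between 0.373 and 0.822 RPKM in Th0 (median 0.706) and between 2.17 and 2.95 RPKM in Th1 (median 2.38), and resting cells had 1.75 and 1.85 RPKM. The level at rest lay between both conditions. The log2 difference was 1.37 (SE 0.15, limma, adjusted p = 7.71e-05). Furin, a proprotein convertase that IL-12 is known to induce, was between 22.3 and 37.3 RPKM in Th0 (median 35.2) and between 55.7 and 77.0 RPKM in Th1 (median 65.8; log2 difference 1.05, SE 0.12, limma, adjusted p = 8.4e-05). Its values did not overlap, though without 8 h it came under 2-fold, at 0.98. Gadd45g, which acts on p38 signalling and takes part in IFN-γ production, stayed between 6.45 and 9.15 RPKM in Th0 (median 8.29), near 6.66 RPKM at rest. In Th1 it climbed from 11.8 RPKM at 4 h to 31.6 RPKM at 16 h, with a median of 22.8 RPKM (log2 difference 1.40, SE 0.22, limma, adjusted p = 0.00195).

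Chemokine genes followed. Ccl3, which attracts T cells and macrophages, had a median of 81.8 RPKM in Th0 and 162 RPKM in Th1 (log2 difference 1.16, SE 0.23, limma, adjusted p = 0.0122). Ccl3 did not pass without 12 h (limma, adjusted p = 0.0732) or without the filter on low genes (limma, adjusted p = 0.0513), and came under 2-fold over 12 to 24 h, at 0.96, and against Th0 one time point later, at 0.73. Ccl5 was at a median of 24.4 and 21.3 RPKM (log2 difference -0.12, SE 0.14, limma, adjusted p = 0.692). Cxcl9 and Cxcl10, neighbouring genes on chromosome 5 that encode IFN-γ-induced ligands of Cxcr3, were highest early. Cxcl10 fell from 60.8 to 7.76 RPKM in Th0 (median 18.1) and from 156 to 12.2 RPKM in Th1 (median 43.7), with a log2 difference of 1.02 (SE 0.11, limma, adjusted p = 7.71e-05). Cxcl9 was between 1.17 and 3.34 RPKM in Th0 (median 1.83) and between 1.71 and 8.11 RPKM in Th1 (median 5.15; log2 difference 1.05, SE 0.17, limma, adjusted p = 0.00237), and was under the threshold without 8 h, at 0.93. Without 12 h both came just under 2-fold, as did Cxcl10 without 4 h or 16 h. In Th2 both were lower than in Th0, by -1.62 for Cxcl9 and -2.77 for Cxcl10 (log2, limma, adjusted p = 5.49e-06 and 2.32e-10). Th1 and Th2 are both measured against the same Th0 libraries.

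Further genes higher in Th1 were Sulf2, an extracellular sulfatase (1.36, log2 difference as for the rest of this list), the inhibitory receptor genes Lilr4b (1.31) and Lilrb4a (1.26), the NK receptor gene Ncr1 (1.25), Gem, a small GTPase (1.20), Klrg1, a receptor of NK and effector T cells (1.16), Sytl3, of vesicle exocytosis (1.13), and Atp2b4, a calcium pump (1.02). Lilr4b and Lilrb4a lie 4252 bases apart on chromosome 10, and 24.6% and 46.7% of the 50-base windows of their transcripts also occur in other genes, so their reads may not have been told apart. Without 12 h, 4 of the 19 did not pass: Ccl3, Cxcl9, Cxcl10 and Atp2b4. All 19 genes were higher in Th1 at 6 of 6 hours, which held for 547 genes tested (5.09%), and 9 of them had all 6 Th1 values above all 6 Th0 values, as had 19 genes tested (0.177%).

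**Figure D3:**
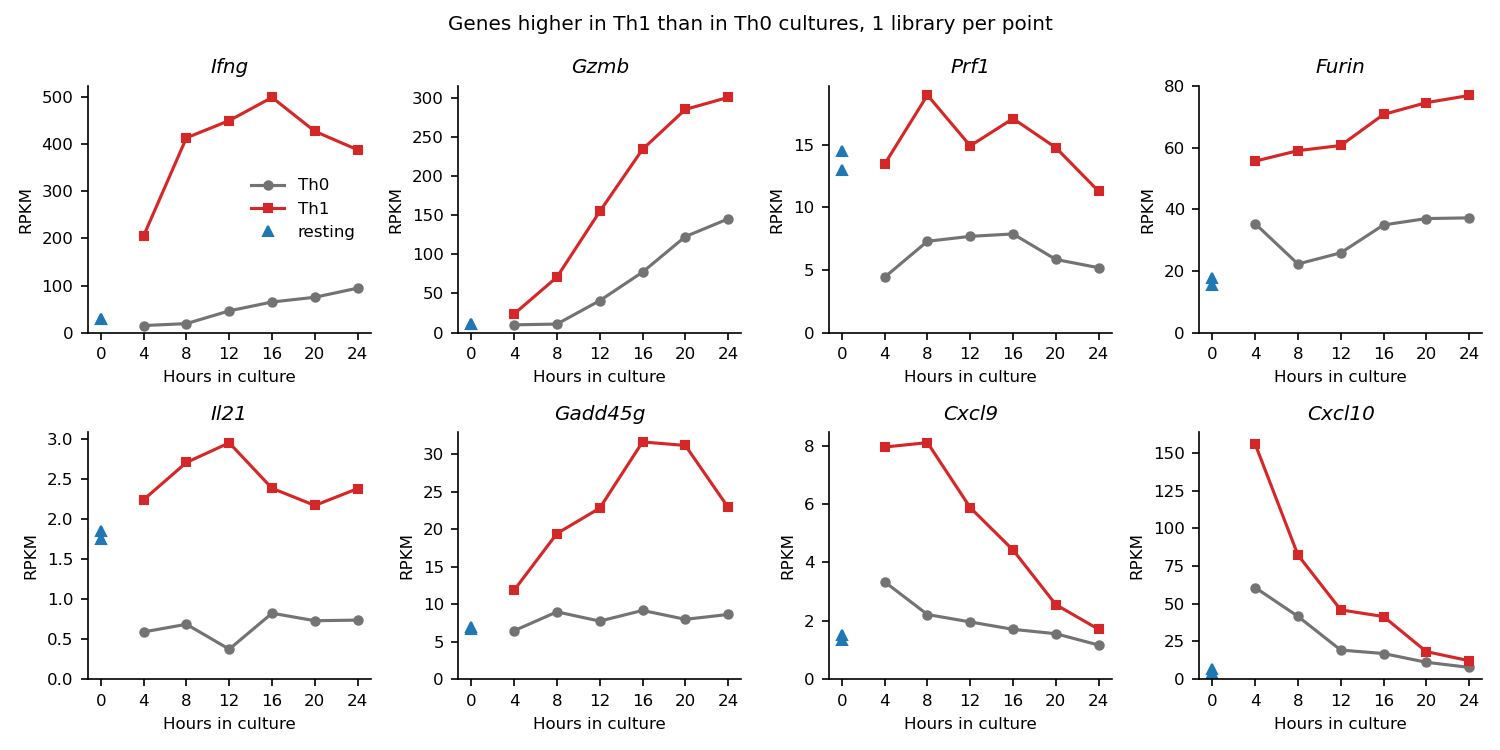
RPKM of 8 genes higher in Th1 (y axis, from 0) by hours in culture (x axis) in Th0 (grey circles), Th1 (red squares) and 2 resting libraries (blue triangles, drawn at 0 h), 1 library per point. Th1 is above Th0 at each of the 6 hours in every panel; Ifng in Th1 is between 205.7 and 499.9 RPKM.

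The receptors and transcription factors of the Th1 programme differed less than Ifng. Over 25 tested genes on the list of Th1 regulators and receptors the median was 0.09 (log2). Tbx21, which encodes T-bet, had 11.0, 18.8 and 41.0 RPKM in Th0 and 16.5, 25.5 and 47.0 RPKM in Th1 (lowest, median, highest). It was higher in Th1 at 6 of 6 hours, but by little: the ratio was between 1.15 at 24 h (95% interval 1.09 to 1.21) and 1.84 at 8 h (1.67 to 2.01). The log2 difference was 0.45 (SE 0.33, limma, adjusted p = 0.518), with an exact permutation p of 0.03125, the smallest that 6 pairs allow. In a limma fit of the 12 Th0 and Th1 libraries alone it had an adjusted p of 0.0188 at the same size, and the alternatives that kept the same-hour pairing gave adjusted p values from 0.0188 to 0.753. In Th2 it was between 3.50 and 9.70 RPKM. Of the chains of the IL-12 receptor, Il12rb1 climbed with time in both conditions. Il12rb2 fell between 4 and 12 h, from 12.0 to 5.45 RPKM in Th0 and from 13.6 to 6.84 RPKM in Th1. It rose again afterwards in both. Il12rb1 rose from 3.23 to 43.6 RPKM in Th0 and from 5.26 to 56.9 RPKM in Th1 (log2 difference 0.44, SE 0.16, limma, adjusted p = 0.198), and Il12rb2 had a median of 8.88 RPKM in Th0 and 10.8 RPKM in Th1 (0.33, SE 0.26, adjusted p = 0.552, limma). Stat4 was lower in Th1 at 6 of 6 hours without passing, with medians of 39.3 RPKM in Th0 and 28.9 RPKM in Th1 (log2 difference -0.44, SE 0.13, limma, adjusted p = 0.107). Both chains of the receptor for IL-18, a cytokine that acts with IL-12 on Ifng, were higher in Th1. They had an adjusted p under 0.05 but were under 2-fold: Il18rap by 0.98 (SE 0.11, limma, adjusted p = 8.11e-05) and Il18r1 by 0.72 (SE 0.12, limma, adjusted p = 0.00304). Against Th0 one time point later both passed, at 1.39 and 1.17 (limma, adjusted p = 7.13e-05 and 6.86e-04). Il18rap also passed without 8 h, at 1.03, and over 12 to 24 h, at 1.04, where Il18r1 came under 2-fold, at 0.84 and 0.85. Cxcr3, the receptor for Cxcl9 and Cxcl10, had medians of 13.6 and 10.3 RPKM (-0.16, SE 0.11, adjusted p = 0.479, limma). Hlx, a partner of T-bet, was at most 0.467 RPKM and Il24 at most 0.312 RPKM in these libraries, both too low to test. On the list of STAT4 and IL-12 targets 7 of 34 genes passed (20.6%), all higher, against 0.177% of all genes tested. Among the 7 were Ifng, Gzmb, Gadd45g, Il21, Lilrb4a and Furin. The median of the list was 0.31 (log2), against -0.01 for all genes tested.

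The values of genes that respond to IFN-γ lay in both directions. Of 46 tested genes of the IFN-γ response, 2 passed (4.35%, against 0.177% of all genes tested called higher), Cxcl9 and Cxcl10, both higher in Th1. At any size 15 of the 46 were higher and 31 lower, against 48.3% of all genes tested higher. The median was -0.20 (log2). It changed with the hour: the list's median was 0.17 at 4 h, when 32 of 46 genes were higher in Th1 (43.5% of all genes were), -0.59 at 8 h, when 13 were higher (49.3% of all genes), -0.44 at 12 h and between -0.12 and 0.06 from 16 h on. Irf1, a transcription factor induced by IFN-γ, was lower in Th1 at 6 of 6 hours, with medians of 320.1 and 281 RPKM (-0.24, SE 0.13, adjusted p = 0.383, limma). Socs1, a feedback inhibitor of cytokine receptors, was lower at an adjusted p under 0.05 but under 2-fold (-0.69, SE 0.13, adjusted p = 0.0107, limma). Its difference was between -1.15 and -1.04 at 4, 8 and 12 h and between -0.42 and -0.17 from 16 h on. Without 12 h and over 12 to 24 h, Socs1 was above the adjusted p limit (limma, adjusted p = 0.0968 and 0.11). Socs3 had a difference of -0.23 (SE 0.21, limma, adjusted p = 0.607), whose sign turned over 12 to 24 h. Of 45 genes of the type I interferon response none passed in limma; at an unadjusted p under 0.05, 0 were higher and 12 lower, against 6.19% and 10.2% of all genes tested. Their median was -0.15; at 8 h 1 of the 45 was higher in Th1, and at 16 h 41 were, when 44.3% of all genes were. In Th2 the median against Th0 was -1.53 for the IFN-γ list and -1.09 for the type I list.

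**Figure D4:**
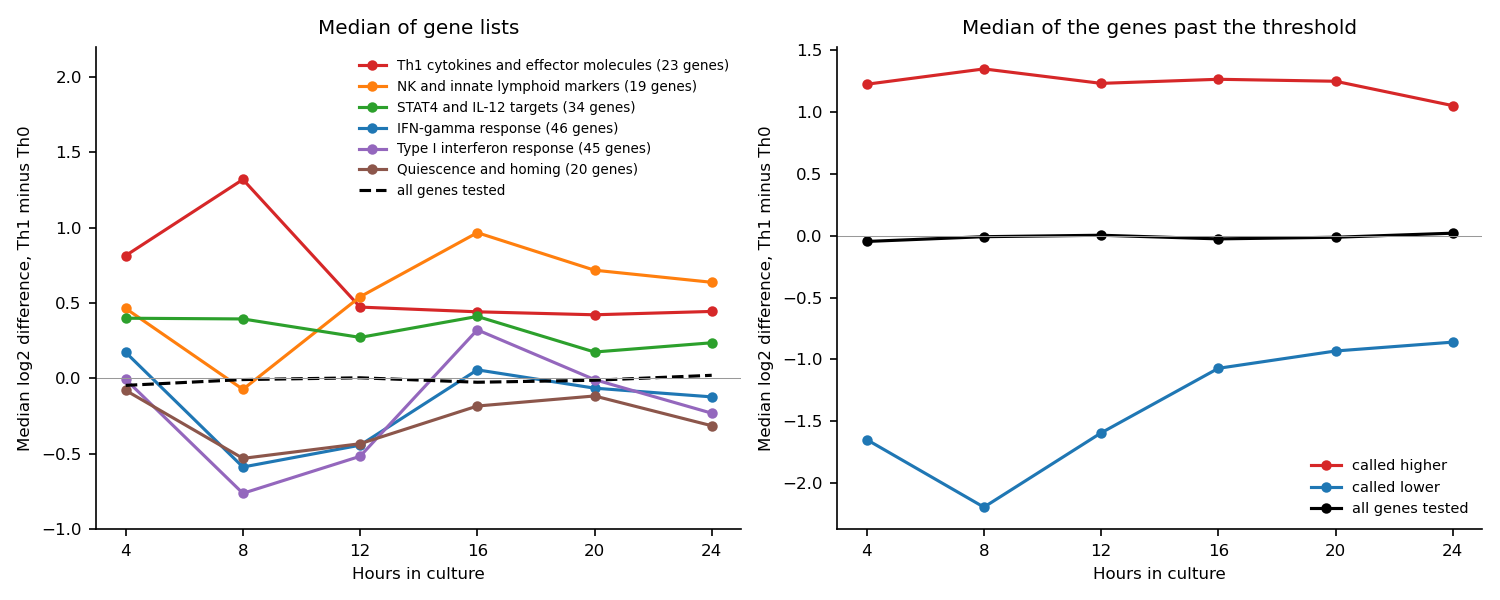
Median log2 difference between Th1 and Th0 (y axis) by hours in culture (x axis), for 6 gene lists and all genes tested (left) and for the 19 higher and 34 lower genes past the threshold (right). The IFN-γ and type I interferon lists dip at 8 h, to -0.59 and -0.76, and the lower genes are farthest from 0 at 8 h, at -2.20, and nearest at 24 h, at -0.86.

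At the same hours more genes were lower in Th1 than higher, which turned with Th0 one time point later. Pros1 led the lower genes. Pros1 encodes protein S, a plasma anticoagulant that also bridges dying cells to the TAM receptors of phagocytes and is made by activated T cells. It had 1.95 and 1.51 RPKM at rest. In Th0 it climbed from 11.4 RPKM at 4 h to 53.2 RPKM at 24 h (median 29.5), and in Th1 it had at least 2.01, a median of 4.57 and at most 9.54 RPKM. The highest Th1 value, at 24 h, lay below the lowest Th0 value, at 4 h. The log2 difference was -2.60 (SE 0.20, limma, adjusted p = 7.58e-06), 6.08-fold, and at 5 of 6 hours Pros1 had the largest fall of all genes with at least 5 RPKM in either library. In Th2 it was between 15.3 and 127 RPKM. Pros1 lies on chromosome 16 of GRCm38 from 62854307 to 62929346, plus strand. D630039A03Rik had a like course at a lower level, with 2.23, 7.15 and 12.9 RPKM in Th0 and 0.771, 1.58 and 2.86 RPKM in Th1 (lowest, median, highest; log2 difference -1.80, SE 0.15, limma, adjusted p = 8.68e-06).

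Among the lower genes were Il4ra and Fcer2a, both on the list of IL-4 and STAT6 targets, and Il4i1 and Ccl17, which IL-4 is also known to induce. Il4ra, the receptor chain for IL-4 and IL-13, was at 39.0 and 40.1 RPKM at rest. In Th0 it had 225 RPKM at 4 h and 65.1 RPKM at 24 h (median 91.6), and in Th1 it stayed between 36.4 and 48.1 RPKM (median 38.5). No Th1 library had the early height of Il4ra in Th0 (log2 difference -1.42, SE 0.23, limma, adjusted p = 0.00304). Fcer2a, which encodes the low-affinity IgE receptor CD23, is known in B cells and responds to IL-4. It was between 4.12 and 8.75 RPKM in Th0 (median 6.24) and between 1.499 and 2.98 RPKM in Th1 (median 2.50; log2 difference -1.21, SE 0.13, limma, adjusted p = 6.45e-05). Il4i1, an IL-4-induced amino acid oxidase, was between 5.80 and 13.3 RPKM in Th0 (median 9.76) and between 2.68 and 4.76 RPKM in Th1 (median 3.86; log2 difference -1.23, SE 0.13, limma, adjusted p = 6.47e-05). For all 3 genes the conditions did not overlap. Ccl17, a ligand of Ccr4, was lower by -1.12 (SE 0.26, limma, adjusted p = 0.0305) at low levels, with medians of 1.95 RPKM in Th0 and 0.458 RPKM in Th1, and was higher in Th1 at 4 h; without 8 h it did not pass. In Th2, Fcer2a, Il4i1 and Ccl17 were above Th0 by 0.92, 1.00 and 1.97 (log2), and Il4ra differed from Th0 by -0.15. That mean of Il4ra covers both directions. Il4ra in Th2 was above Th0 at 4 h (363 against 225 RPKM), 20 h and 24 h. It was below Th0 at 8 h (114 against 202 RPKM), 12 h and 16 h.

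The values of other Th2 genes lay in both directions. Gata3 was lower in Th1 at 6 of 6 hours, with 11.2, 15.8 and 30.6 RPKM in Th0 and 7.21, 8.29 and 11.0 RPKM in Th1 (lowest, median, highest), without overlap; its log2 difference of -0.94 fell short of 2-fold (SE 0.14, limma, adjusted p = 0.00153). Ccr4, a chemokine receptor of Th2 cells, was also lower at 6 of 6 hours and under 2-fold (-0.74, SE 0.08, adjusted p = 6.45e-05, limma). The cytokine genes had higher medians in Th1 without passing at the same hours. Il4 had medians of 11.6 RPKM in Th0 and 23.7 RPKM in Th1, and was higher in Th1 at 5 of 6 hours (log2 difference 0.87, SE 0.27, limma, adjusted p = 0.123). Il13 had medians of 7.64 and 12.4 RPKM (0.64, SE 0.18, adjusted p = 0.0867, limma). Against Th0 one time point later Il4 passed, at 1.16 (limma, adjusted p = 0.00604), and Il13 came under 2-fold, at 0.51. Of 30 tested IL-4 and STAT6 targets 2 passed (6.67%), Il4ra and Fcer2a, both lower, and the median was -0.08. Of 18 Th2 cytokines and regulators 1 passed (5.56%), Il4ra, and the median was 0.16. Of all genes tested 0.317% passed and were lower. At an adjusted p under 0.05 of any size, 0 of the 30 were higher and 5 lower (limma). Of the 18, 1 was higher and 3 were lower at that adjusted p, beside 0.522% and 1.75% of all genes tested. Cish, a target of IL-2 and IL-4, was lower at 6 of 6 hours (-0.33, SE 0.10, adjusted p = 0.129, limma).

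Dusp10, Trat1, Ppp3cc and Rasgrp1 were picked from the lower genes for description after their values were seen, and stand for no list. Dusp10, a phosphatase of p38 and JNK, fell with time from 95.1 to 17.0 RPKM in Th0 (median 30.5) and from 26.0 to 5.60 RPKM in Th1 (median 7.34; log2 difference -1.96, SE 0.20, limma, adjusted p = 6.45e-05). Trat1, an adaptor that stabilises the receptor complex, had 40.3, 80.3 and 225 RPKM in Th0 and 15.9, 23.7 and 48.0 RPKM in Th1 (lowest, median, highest; log2 difference -1.72, SE 0.32, limma, adjusted p = 0.00752). Trat1 did not pass without 12 h (limma, adjusted p = 0.0551). The highest Th0 values of Trat1 and Ppp3cc were both at 8 h. Ppp3cc, a catalytic subunit of calcineurin, was between 29.2 and 92.2 RPKM in Th0 (median 46.1) and between 11.8 and 18.3 RPKM in Th1 (median 16.8), without overlap (log2 difference -1.57, SE 0.23, limma, adjusted p = 0.00105). Rasgrp1, which activates Ras below the receptor, was lower by -1.01 (SE 0.17, limma, adjusted p = 0.00301) and came under 2-fold without 8 h, at -0.86.

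Of the remaining lower genes, those with the largest falls were Gm590 (-2.05, log2 difference as for the rest of this list), Pdlim4, which binds actin (-1.84), Itgb3, the integrin β3 chain (-1.77), Slc2a6, a sugar transporter (-1.73), Sft2d2, of vesicle transport (-1.70), H2-DMa, which loads peptide on MHC class II (-1.65), and Klrb1f, a lectin-like receptor (-1.63). The others, between -1.53 for the motor protein gene Myo6 and -1.02 for Mettl20, were Lyst, of lysosome traffic, Tmie, Tspan9, Cnp, Cacnb1, Qpct, Abcb1a, Cma1, Art2b, Glipr2, Cd7, Ncoa7, Klhdc1, Dhrs3 and Als2cl. Tmie and Als2cl overlap by 244 bases on chromosome 9 on opposite strands, so part of their reads could not be told apart if strand was not used in counting. Of the transcript windows of Abcb1a, 17.6% also occur in other genes, mostly Abcb1b. Without 8 h, 13 of the 34 lower genes did not pass: Rasgrp1, Mettl20, Als2cl, Dhrs3, Klhdc1, Ncoa7, Cd7, Glipr2, Ccl17, Cma1, Qpct, Myo6 and Klrb1f. Without 12 h, 13 did not pass, among them Trat1 and Art2b, which passed without 8 h. Of the 34 genes, 32 were lower at 6 of 6 hours, all but Dhrs3 and Ccl17, which held for 792 genes tested (7.38%), and 13 had all 6 Th1 values below all 6 Th0 values, as had 34 genes tested (0.317%).

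Most lower genes were highest early in Th0. In 31 of 34 (91.2%) the highest Th0 value was at 4 or 8 h, against 46.0% of all genes tested, and at 8 h Th0 exceeded both resting libraries in 31 (91.2%, against 42.9%). Th1 at 8 h was below both resting libraries in 27 of the 34 (79.4%, against 49.7%). These shares are a description, since the same Th0 values enter the differences that chose the genes. The resting libraries are titled with a different tag, so how they were prepared cannot be told apart from activation. Over the 34 genes as a set the gap was wider early than late: 28 of the 34 genes were at least 2-fold lower at 4 h, 34 at 8 h, 32 at 12 h, 20 at 16 h, 13 at 20 h and 15 at 24 h. None of the 34 passed the test of the slope on its own with all hours in the fit. The median of the 19 higher genes was more even, at between 1.05 at 24 h and 1.35 at 8 h. In Th2, 11 of the 34 lower genes and 9 of the 19 higher genes were above Th0, as were 50.4% of all genes tested; Th1 and Th2 share the Th0 libraries.

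**Figure D5:**
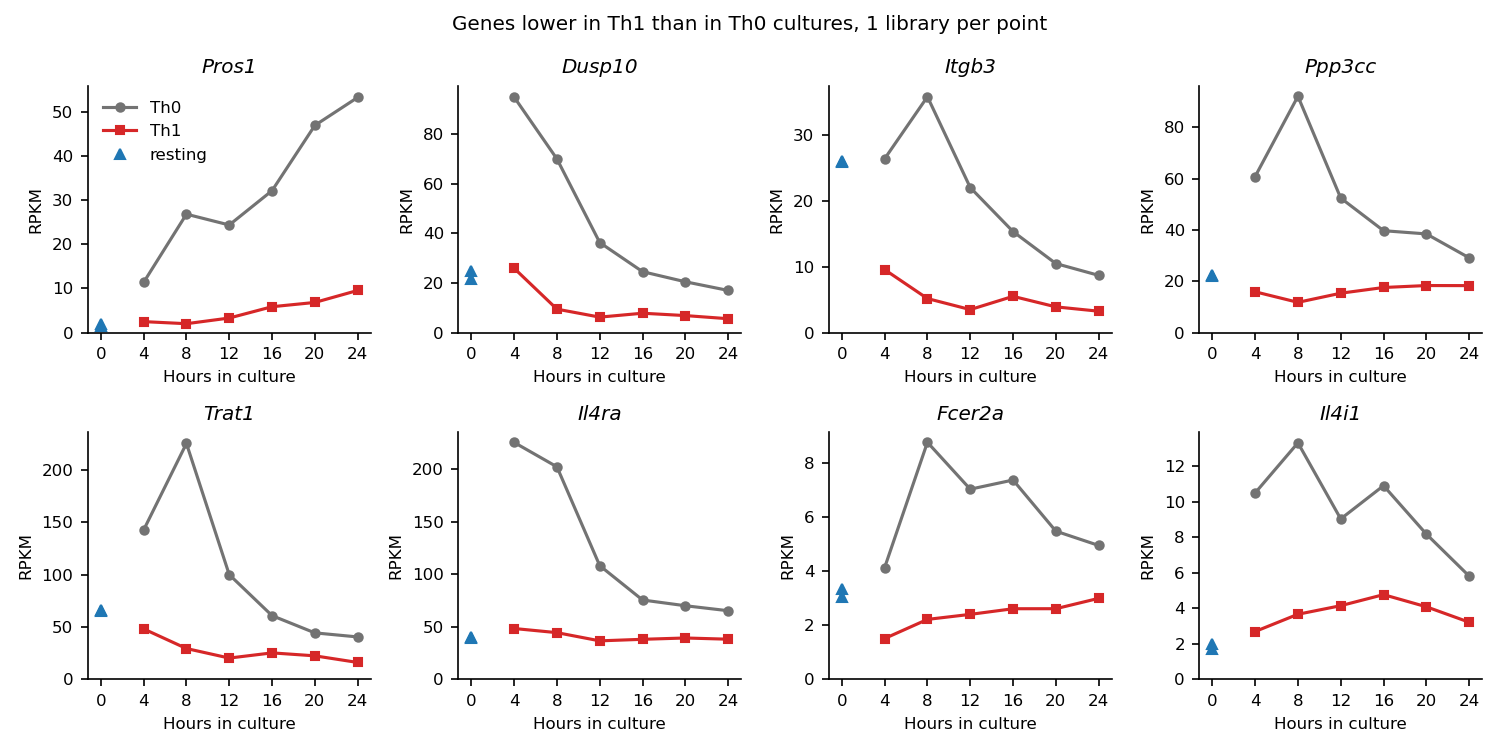
RPKM of 8 genes lower in Th1 (y axis, from 0) by hours in culture (x axis) in Th0 (grey circles), Th1 (red squares) and 2 resting libraries (blue triangles, drawn at 0 h), 1 library per point. Th1 is below Th0 at each of the 6 hours in every panel; Pros1 climbs with time in Th0, while Dusp10, Ppp3cc, Trat1 and Il4ra are highest at 4 or 8 h.

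At single hours, with 1 library a condition and no test, most genes differed at 8 h. At least 2-fold higher in Th1 were 45 genes at 4 h (0.419%), 185 at 8 h (1.72%), 27 at 12 h (0.251%), 50 at 16 h (0.466%), 43 at 20 h (0.400%) and 25 at 24 h (0.233%). At least 2-fold lower were 93 (0.866%), 183 (1.70%), 86 (0.801%), 42 (0.391%), 39 (0.363%) and 36 genes (0.335%) at the same hours. Ifng had the largest rise at 6 of 6 hours among genes with at least 5 RPKM in either library. Genes that were among the 3 farthest apart at 1 hour without passing over the 6 were Nkg7, of cytotoxic granules, at 4 h (1.61), Bdh2, which makes a siderophore, at 8 h (2.07), Ifitm3, an interferon-induced membrane protein, and Gm3940 at 16 h (1.75 and -1.73) and Marcks, a substrate of protein kinase C, at 24 h (-1.70; all log2 differences). The difference changed steadily with time in 3 of 10737 genes (0.0279%; limma, slope of at least 2-fold over 20 h at an adjusted p under 0.05). Xcl1, the chemokine lymphotactin, was 1.54 above Th0 at 4 h and -0.37 at 24 h, with medians of 319 RPKM in Th0 and 455 RPKM in Th1 (slope -1.95, SE 0.29, limma, adjusted p = 0.0448). Mink1, a kinase, and Slc17a9, a vesicular nucleotide transporter, began lower in Th1 and came level. The slope was 1.74 for Mink1 (SE 0.20, limma, adjusted p = 0.00595) and 1.11 for Slc17a9 (SE 0.17, limma, adjusted p = 0.0471). This count was 34 without 4 h, 1 without 8 h or 16 h, and 0 without 20 h or 24 h, with 626 and 776 genes at an unadjusted p under 0.05.

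Markers of other cell types moved with some of these genes. Of 19 markers of NK and innate lymphoid cells, all tested, 4 passed, all higher (Ncr1, Klrg1, Gzma and Prf1), and 10 were higher and 1 lower at an adjusted p under 0.05. Of all genes tested, 0.177% passed and were higher, and 0.522% were higher and 1.75% lower at that adjusted p. At any size 16 of the 19 were higher and 3 lower, against 48.3% of all genes tested higher, and the median was 0.68 (log2). At 8 h, 9 of the 19 were higher (49.3% of all genes), with a median of -0.07, against 15 or 16 at each other hour. Their summed level was between 259 and 337 RPKM in Th0, between 367 and 504 RPKM in Th1 and 553 and 569 RPKM at rest, and none of the 19 was at 0 in all 12 libraries. Ncr1, which encodes NKp46, was 2.52 RPKM in Th0 and 12.2 RPKM in Th1 at 4 h. The 3 lower members were Eomes, a transcription factor of NK and CD8+ T cells (-0.72, limma, adjusted p = 0.0428), Klrb1c, which encodes NK1.1 (-0.48, adjusted p = 0.136), and Klrb1b (-0.46, adjusted p = 0.155). Of 12 CD8+ T cell markers 3 passed (25%), all higher (Prf1, Gzma and Gzmb), beside 0.177% of all genes tested. At an adjusted p under 0.05, 5 of the 12 were higher and 1 lower, beside 0.522% and 1.75% of all genes tested. Cd8a and Cd8b1, the chains of CD8 itself, had differences of -0.07 and -0.27 (limma, adjusted p = 0.866 and 0.288). These genes were picked from their lists after their values were seen. The part of other lymphocytes in the higher level of Gzma, Gzmb, Prf1, Ccl3, Klrg1, Ncr1 and Ifng was not tested. Of 9 tested B cell markers 1 passed (11.1%), Fcer2a, beside 0.317% of all genes tested that passed and were lower. All 9 were lower, whereas 48.3% of all genes tested were higher, and the median of the 9 was -0.28. The summed level of the 14 B cell markers was between 22.1 and 62.2 RPKM in Th0 and between 15.8 and 49.6 RPKM in Th1, and its part in Fcer2a was not tested. Of 10 dendritic cell markers 1 passed (10%), Ccl17, which was lower, beside the same 0.317%, and the median of the 10 was -0.29. None of 12 monocyte and macrophage markers, 8 neutrophil and mast cell markers, 12 red cell transcripts and 13 genes of T cell identity passed in limma; at an unadjusted p under 0.05, 2, 2, 6 and 1 of them were lower and 0, 0, 0 and 2 higher, beside the 10.2% and 6.19% of all genes tested.

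Motifs were counted in the RefSeq promoters of GRCm38.p6, from 250 bases before to 50 bases after the start, on both strands, each motif on its own. Of the 19 higher genes 15 had a promoter, and of the 34 lower genes 28 had one. The GAS element TTCNNNGAA was in 4 of 15 (26.7%) and 6 of 28 (21.4%), against 8.47% of 8181 genes tested with a promoter and 9.55% of all 27025. The STAT6 site was in 0 of 15 and 7 of 28, against 6.47% and 8.01%. The interferon-stimulated response element, searched as GAAA, any 2 bases and GAAA again, was in 2 of 15 (13.3%) and 2 of 28 (7.14%), against 3.98% and 3.99%, and the T-box half-site GGTGTGA was in 0 of 15 and 2 of 28 (7.14%), against 4.09% and 4.60%. The GAS matches are shown because this motif was in the most of these promoters; the response element was also above the share of the genes tested in both directions. No test was made, and a match is no evidence of binding. Each match is in capitals with up to 10 bases on either side, 5′ to 3′ on the gene's strand, higher genes first.
Ifng (chr10:118440796-118440815, plus strand): tTTCAGAGAAtcccacaaga
Gzmb (chr14:56262285-56262307, minus strand): ggcaggagttTTCATAGAAagca
Lilr4b (chr10:51480498-51480526, plus strand): gatgtggcttTTCTCTGAAggaacttgag
Sytl3 (chr17:6659021-6659049, plus strand): gatgaggcatTTCACCGAAgtctcttatc
Rasgrp1 (chr2:117342979-117343007, minus strand): gggggcaggaTTCGAAGAAgaactgaggg
Ccl17 (chr8:94810344-94810372, plus strand): ttatctcaaaTTCTTTGAAtttctctagt
Tspan9 (chr6:128095611-128095639, minus strand): cttggatttcTTCAGAGAAagaaatggag
Lyst (chr13:13590165-13590193, plus strand): aggggtggagTTCAGAGAAgctgcacagg
Klrb1f (chr6:129045886-129045914, plus strand): ttaattttgcTTCTCAGAActtagaattt
Pros1 (chr16:62854205-62854233, plus strand): tgcgaagagcTTCCAGGAAatgtcccagt
Counted from the RefSeq start, the match lies 37 to 45 bases after it in Gzmb and spans it in Klrb1f, and the other 8 lie before it. The start differs between annotations. From the gene start in GENCODE vM21 the match lies before it in Gzmb, 4 to 12 bases after it in Rasgrp1 and inside the gene in Tspan9, and the other 7 lie as stated.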

How the data were processed

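RNA sequencing of 24 libraries was deposited as 1 table of RPKM values per gene symbol, made by the authors; per the labels BWA and GRCm38 were used, and the counting tool and annotation are not given in the sources used here. The table has 22010 entries, 1 of them without a name and at 0 throughout, which was left out.

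The mapped reads per library were recovered from the RPKM values. For 6481 of 16823 genes (38.5%), every value was within 0.01 of a whole read at 1 whole gene length. Intervals are given for these genes only, cover counting error only, and no count test was run.

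Log2(RPKM + 0.5), a scale on which the folds of low genes are understated, was fitted with limma 3.58.1 in R 4.3.3, with an intensity trend, for genes that averaged 1 RPKM or more over the 18 cultures (Th0, Th1 and Th2). The fit held the 18 cultures together, so the Th2 libraries also entered its error. Time point was a factor, so the conditions were compared within hours. Genes were called at a Benjamini-Hochberg adjusted p under 0.05 and a mean difference of at least 2-fold, after the limits the study states for its microarrays. The slope of the Th1 minus Th0 difference on hour was tested in the same way. Exact two-sided permutation tests changed the signs of the 6 paired differences, which cannot give a p below 0.03125. On simulated data with 10737 genes, all 200 genes given a log2 difference of 2 between Th1 and Th0 were found and 0 others, as were 172 of 200 given a slope of 2 (log2 over 20 h), with 3 others. The simulated errors were independent between libraries. The run therefore cannot speak to errors shared by the hours of a culture, nor to differences near the 2-fold limit.

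The genes named are the 12 called genes with the largest difference each way, called genes on 20 lists of pathways and cell types, 27 genes of the Th1 and Th2 programmes, the genes with a called slope, and the 3 farthest apart each way at each hour among those with at least 5 RPKM in either library; some of them are not reported here. The members and lists were chosen with earlier results of these data known. Alternatives were a pseudocount of 0.1 or 1, leaving the filter out or setting it at 5 RPKM, 3 other scalings, no intensity trend, only the Th0 and Th1 libraries, single hours or blocks of hours left out, and a 1.5-fold limit. The 4 actinomycin libraries were not used. Other steps used Python 3.11.15 (scipy 1.17.1, numpy 2.4.6, pandas 2.3.3).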

Additional observations from a re-analysis of the deposited data

Results flagged for a closer look

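At 1 of the 6 hours, the Th1 minus Th0 difference of 4 of 81 tested genes chosen by the naming rule lay far from that at the other 5; chance alone gives such a mark in about 1 of 20 groups. They were Il21 at 12 h, at 1.98 (log2) against a median of 1.22 at the other hours, Bdh2 at 8 h (2.07 against 0.61), Cma1 at 8 h (-2.81 against -1.08) and D630039A03Rik at 4 h (-0.95 against -1.91).

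The difference changed over time in 3 genes by a test of the slope itself (limma, adjusted p under 0.05). Between 4 and 24 h the difference of Xcl1 changed by -1.95, that of Slc17a9 by 1.11 and that of Mink1 by 1.74 (log2). Mink1 was among the genes called under 13 of the 17 alternatives with a slope test.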

How the results depend on the processing

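Of the 53 genes called, none changed direction under any alternative planned. Of them 28 were called under each alternative in which they were tested, and some of the 28 were not tested with the filter at 5 RPKM. With that filter, 14 of the 53 were not among the genes called. The number of genes called was between 36 and 60 leaving out 1 hour and between 39 and 78 under the other alternatives with a 2-fold limit; with a 1.5-fold limit it was 139, of which 38 were higher and 101 lower. Genes called lower were between 21 and 39 leaving out 1 hour (22 without 8 h, 21 without 12 h) and 59 over 4 to 12 h. Genes past the adjusted p alone were between 78 and 377 leaving out 1 hour (the lowest without 12 h, the highest without 24 h), 142 over 12 to 24 h and 153 over 4 to 12 h; those counts rest on fewer libraries.

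Genes with a called slope were between 0 and 34 leaving out 1 hour, 6 with a pseudocount of 0.1, 1 with median-of-ratios scaling or no intensity trend, 8 with quantile normalization, and 0 over 12 to 24 h or 4 to 12 h (limma; 568 and 125 at an unadjusted p under 0.05). The cause was not tested.

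With Th1 paired with Th0 one time point later, 33 genes were called higher and 28 lower, against 19 and 34 at the same hour, and 7 named genes that were not called turned direction: Il2 (-0.0745), Il12rb1 (-0.266), Il2ra (-0.111), Ccl5 (0.456), Cxcr3 (0.0739), Socs3 (0.0265) and Irf1 (0.0507). Socs3 was at 0.0202 over 12 to 24 h. The hour pairs the conditions in the fit. With this block left out, an alternative added after seeing the data in which changes over the hours count as error, 19 genes were called, 8 higher and 11 lower, and 25 passed the adjusted p alone. Each hour was sequenced once, so no value here measures the spread between cultures.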

Other observations

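Some gene lists differed at single hours without any of their genes passing over the 6. Of 32 genes of T cell activation, 29 were higher in Th1 at 8 h (49.3% of all genes tested were), with a median log2 difference of 0.69, and 10 were higher at 16 h (44.3% of all genes), with a median of -0.15. None passed in limma, and 5 were higher and 1 lower at an unadjusted p under 0.05, against 6.19% and 10.2% of all genes tested. Il2, the growth factor of T cells, had medians of 70.7 RPKM in Th0 and 78.1 RPKM in Th1 and its receptor chain Il2ra had 193 and 226 RPKM (log2 differences 0.61 and 0.31, limma, adjusted p = 0.227 and 0.382). Of 20 genes of quiescence and homing, 16 were lower over the 6 hours, with a median of -0.21, as were 5554 of all 10737 genes tested. In limma 5 of the 20 were lower at an adjusted p under 0.05, none by 2-fold, against 1.75% of all genes tested. Of 30 genes of proliferation, 6 were higher in Th1 at 8 h and 27 at 24 h (55.1% of all genes), with medians of -0.20 and 0.14; none passed in limma, and 0 were higher and 1 lower at an unadjusted p under 0.05.

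Of 23 IL-2 and STAT5 targets 1 passed (4.35%), Gzmb, and the median of the list was 0.04. Of 25 genes of Th17, follicular helper and regulatory T cells 1 passed (4%), Il21, and the median was 0.07. Gzmb and Il21 were both higher, as were 0.177% of all genes tested at that threshold. Il10, an anti-inflammatory cytokine, was higher in Th1 at 6 of 6 hours, with medians of 4.91 RPKM in Th0 and 6.61 RPKM in Th1 (log2 difference 0.54, SE 0.19, limma, adjusted p = 0.181).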
